A study of Homo sapiens with 6 samples.

Results

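Among the many genes that work on Ewing sarcoma has reported as activated by EWS-FLI1, 30 were followed here by name: the kinases PRKCB, VRK1, JAK1 and KIT, the phosphatase family genes PTPN13 and STYXL1, the transcription factors GLI1, E2F3, BCL11B and SOX6, and genes for secreted proteins, receptors, surface proteins and enzymes. Each of the 30 had a row among the 27234 rows of the count table, and 25 passed the low-count filter and were tested among 9420 genes. GLI1, TERT, KIT, LOXHD1 and MFNG did not pass it and are given by their counts. RNA was measured in A673, a human Ewing sarcoma cell line that carries the EWS-FLI1 fusion, 48 h after siRNA to FLI1 (siFLI1, 3 libraries) or scrambled siRNA (siControl, 3 libraries) was transfected. Both groups are the same line with the same fusion and growth medium, so the comparison concerns 1 line at 1 time.

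EWS-FLI1 joins a part of EWSR1, an RNA-binding protein, to the DNA-binding ETS domain of FLI1. That part of EWSR1 activates transcription strongly when tethered to DNA. ETS domains bind DNA around a GGAA core, and the fusion is known both to bind repeated GGAA stretches, from which it activates genes, and to bind single ETS sites near promoters. The genes of the list come from different studies, cell lines and assays, and for some of them activation was reported in 1 model alone.

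The libraries read 3' ends of polyadenylated RNA, and their sums of counts ran from 417145 in siFLI1 replicate 3 to 1893606 in siFLI1 replicate 1. The sum was 10.1% of the total in the column header in siFLI1 replicate 3, against 41.2% to 61.0% in the other 5 libraries. On principal components of log CPM, siFLI1 replicate 3 stood apart on the first, at 76.1 against −29.9 to 2.68, and siControl replicate 1 on the third, at −42.7 against −11.8 to 30.7. FLI1, the target, was at 19.0, 42.5 and 24.1 CPM (counts scaled to a common library size with TMM factors) in siFLI1 replicates 1, 2 and 3, against 63.0, 69.1 and 62.4 CPM for siControl replicates 1, 2 and 3. Its log2 fold change of −1.16 ± 0.36 (SE) did not pass the test over all genes (edgeR adjusted p = 0.17), and its 3' reads do not separate the fusion from unfused FLI1. All 7 listed markers of Ewing cells were detected, with a summed level of 603 to 715 CPM with siFLI1 and 1072 to 1328 CPM with siControl. These markers include FLI1 itself and the members CD99 and BCL11B, and STEAP1 alone averaged 379 CPM with siFLI1 and 688 CPM with siControl, so the sum is not independent of the knockdown or of the list. The 6 listed fibroblast markers were also all detected, at 1979 to 2211 CPM with siFLI1 and 509 to 584 CPM with siControl, and the 3 collagen genes among them made up nearly all of this sum. Of the other fibroblast markers DCN and LUM had 2 to 9 counts per group, and PDGFRA had 3 counts in siFLI1 and 26 in siControl, 25 of them in siControl replicate 1. Of 5 blood cell markers 4 were detected (69.3 to 83.7 CPM with siFLI1, 44.5 to 59.8 CPM with siControl), with CD3E at 0. CD68 made up most of this sum except in siFLI1 replicate 3. There PTPRC was at 42.8 CPM, from 16 counts, and CD68 at 37.5 CPM. PTPRC had 6 counts in siControl replicate 3 and 0 in the other libraries. Endothelial markers (4 of 4 detected) summed to 3.91 to 9.30 CPM with siFLI1 and 2.93 to 9.40 CPM with siControl. Epithelial markers (2 of 4 detected, KRT5 and KRT14 at 0) summed to at most 8.03 CPM with siFLI1 and 7.69 CPM with siControl. The part of these markers in the values that follow was not tested, and fewer cells of a kind cannot be told apart from less RNA per cell.

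Of the 25 tested members, PRKCB fell and the other 24 did not pass the test. With edgeR at a threshold of 0.05 on the adjusted p, 1.45% of all 9420 genes were called in either direction. Of the members 1 of 25 (4%) was lower in siFLI1, where 0.117% of all genes were (11 genes, a count that ran from 1 to 7 in the fits without 1 library), and 0 of 25 were higher, where 1.34% of all genes were (126 genes). DESeq2 and limma-voom likewise called PRKCB alone, with 0.361% and 0.159% of all genes lower and 1.94% and 1.39% higher. At an unadjusted p below 0.05, 6 members were lower (PRKCB, NPY1R, CCK, KDSR, STEAP2 and CALCB) against 4.13% of all genes, and 1, PDGFC, was higher against 6.62% of all genes. The libraries of the 2 groups did not overlap, with siFLI1 below, for 6 of the 25 members and for 7.71% of all tested genes, and with siFLI1 above for 1 member and for 8.93% of all tested genes. A negative log2 fold change was found for 16 of the 25 members, or 64%, and for 49.6% of all tested genes. The median log2 fold change was −0.30 over the 25 members, with quartiles of −0.72 and 0.21, and 0.01 over all tested genes, with quartiles of −0.33 and 0.37. These counts and medians describe the 25 that passed the filter and not all 30. Scaling by total counts moved the median of all genes to −0.12 and that of the members to −0.44.

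Each siFLI1 library taken alone also held more members below than above the siControl level. Of the 25 tested members, 18 lay below their siControl mean in siFLI1 replicate 1, 17 in replicate 2 and 16 in replicate 3, with medians of −0.39, −0.35 and −0.29 on the log2 CPM scale. The 3 comparisons share the same control libraries. Over all tested genes the corresponding shares below the siControl mean were 48.1%, 49.1% and 49.7%.

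**Figure D1:**
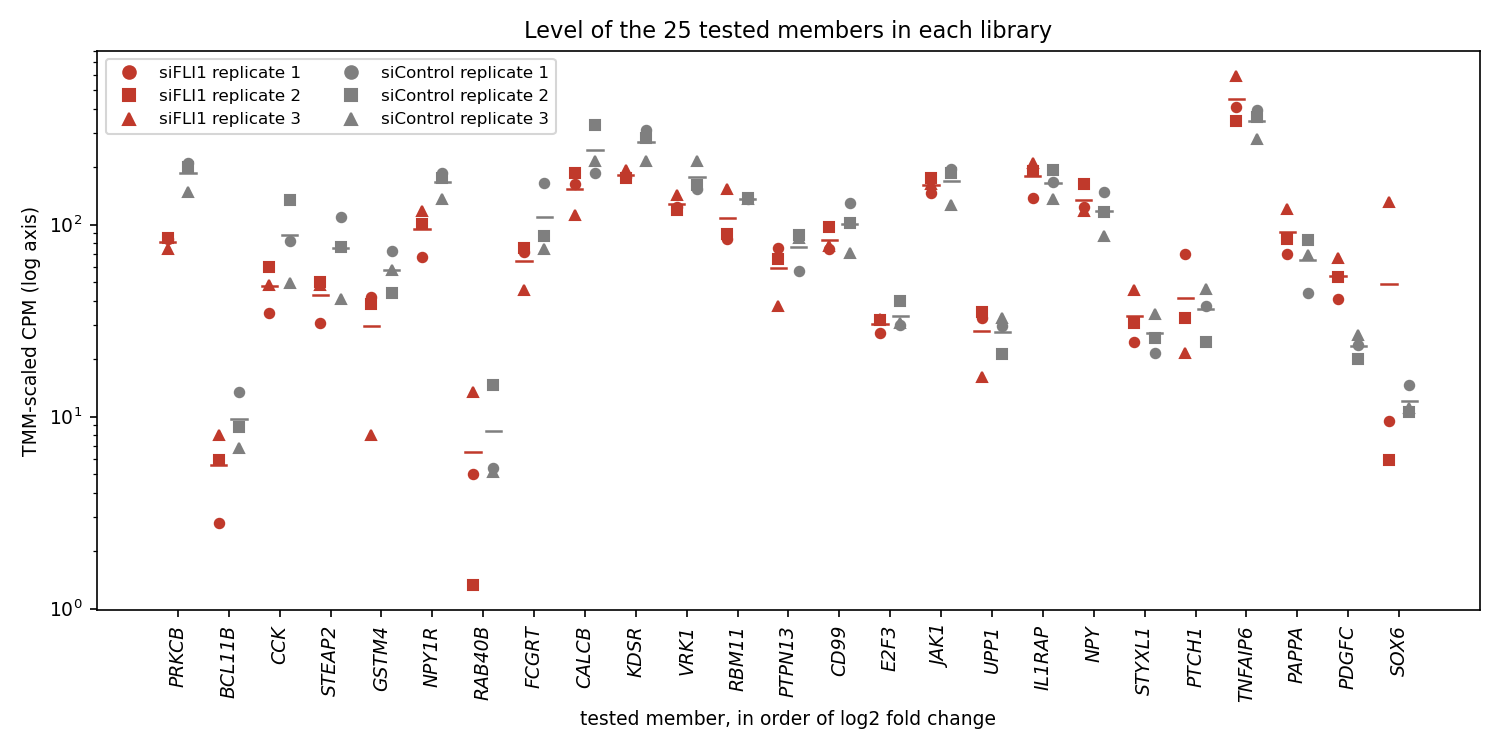
Level of the 25 tested members per library (CPM with TMM factors, log axis), with siFLI1 in red left of siControl in grey. Symbols are replicates 1, 2 and 3 and short lines group means. PRKCB, at the left, has no overlap between groups (means 81.5 and 184 CPM), and SOX6, at the right, has 1 siFLI1 library at 131 CPM and the other 5 below 15.

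Among kinases, PRKCB encodes protein kinase C beta, which is activated by diacylglycerol and calcium and signals downstream of many surface receptors. Its row lies at chr16:23835979-24220611 on the plus strand of hg38. PRKCB was at 84.4, 85.0 and 75.0 CPM for siFLI1 replicates 1, 2 and 3, from 151, 128 and 28 counts, against 208, 199 and 147 CPM for siControl replicates 1, 2 and 3, from 386, 339 and 172 counts. Libraries of siFLI1 lay close together and all below the lowest siControl library. The means were 81.5 ± 5.64 CPM with siFLI1 and 184 ± 32.8 CPM with siControl (SD, n = 3 each), which puts siFLI1 at 44.2% of siControl. In edgeR's quasi-likelihood test this gave −1.17 ± 0.26 on the log2 scale (SE; 95% interval −1.72 to −0.62), with an adjusted p of 0.0369. The direction held in each fit without 1 library, where the log2 fold change ran from −1.31 to −1.10. The call did not hold in any of those 6 fits, with adjusted p from 0.0633 (without siControl replicate 3) to 0.19 (without siFLI1 replicate 2), nor with both libraries that stood apart left out (−1.04, adjusted p = 0.0594). The residual level of FLI1 was lowest in siFLI1 replicate 1 and highest in replicate 2, and PRKCB differed little between these libraries. Replicate 3 had the lowest PRKCB level of the group, while its FLI1 level lay between those of the other siFLI1 libraries. A relation of PRKCB to residual FLI1 across libraries was not tested.

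The 300 bases around the annotated start of PRKCB are shown because this is the member that passed the test, with those of NPY1R, the lower member with the next smallest p, for contrast. They are from RefSeq (GRCh38.p14), run from 250 bases before the start to 50 bases after it on the gene's strand, and carry each GGAA core, read on either strand as GGAA or TTCC, in capitals.
PRKCB (chr16:23835733-23836032, plus strand): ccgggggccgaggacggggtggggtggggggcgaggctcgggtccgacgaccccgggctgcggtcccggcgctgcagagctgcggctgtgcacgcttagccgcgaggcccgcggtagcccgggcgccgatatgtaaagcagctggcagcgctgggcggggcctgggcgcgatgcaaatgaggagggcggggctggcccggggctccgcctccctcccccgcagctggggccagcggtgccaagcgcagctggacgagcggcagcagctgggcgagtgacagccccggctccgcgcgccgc
NPY1R (chr4:163332547-163332846, minus strand): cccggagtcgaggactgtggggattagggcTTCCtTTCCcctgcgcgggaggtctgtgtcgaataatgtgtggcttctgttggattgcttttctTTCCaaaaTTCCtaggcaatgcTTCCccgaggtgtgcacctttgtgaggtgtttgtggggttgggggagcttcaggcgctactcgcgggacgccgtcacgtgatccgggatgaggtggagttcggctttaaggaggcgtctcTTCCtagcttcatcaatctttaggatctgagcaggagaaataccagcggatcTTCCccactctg
PRKCB held 0 cores in this window and NPY1R 7. The NPY1R window belongs to another start than that of the gene's row in the counts. That row, on the minus strand, ends at chr4:163332795, inside the window. The search for single cores was added after other motif matches were seen. A core was present in 41 of 44 member windows, those of 22 of 25 genes, and in 95.5% of 35116 RefSeq promoter windows of this length. The absence concerns these letters in this window alone. Binding was not measured in these libraries.

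VRK1, a nuclear kinase that phosphorylates chromatin and cell cycle proteins, was at 124, 119 and 142 CPM for siFLI1 replicates 1, 2 and 3, against 152, 161 and 214 CPM for siControl replicates 1, 2 and 3. The groups did not overlap, yet the log2 fold change of −0.46 ± 0.25 (SE) did not pass (adjusted p = 0.563). JAK1, the tyrosine kinase that many cytokine receptors use, was at 145, 175 and 163 CPM for siFLI1 replicates 1, 2 and 3, against 194, 184 and 126 CPM for siControl replicates 1, 2 and 3. The siFLI1 values lay inside the range of the siControl values, with a log2 fold change of −0.07 (95% interval −0.62 to 0.49). This interval leaves out a fall of 2-fold. The JAK1 row overlaps RAVER2 on the other strand, which had 154 counts over all libraries, against 585 and 824 for JAK1 in siFLI1 and siControl. KIT, the receptor for stem cell factor, had 9, 5 and 6 counts in siFLI1 replicates 1, 2 and 3 and 20, 5 and 5 in siControl replicates 1, 2 and 3. These counts are too low to set the groups apart. Of the phosphatase family genes, PTPN13, a large tyrosine phosphatase that is both a reported target and a reported regulator of growth in this tumour, averaged 59.6 ± 19.7 CPM with siFLI1 and 76.5 ± 16.9 CPM with siControl. STYXL1, a catalytically inactive relative of dual-specificity phosphatases, averaged 33.6 ± 10.8 CPM with siFLI1 and 27.2 ± 6.44 CPM with siControl. Neither passed, with log2 fold changes of −0.30 ± 0.32 and 0.25 ± 0.39 (SE).

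**Figure D2:**
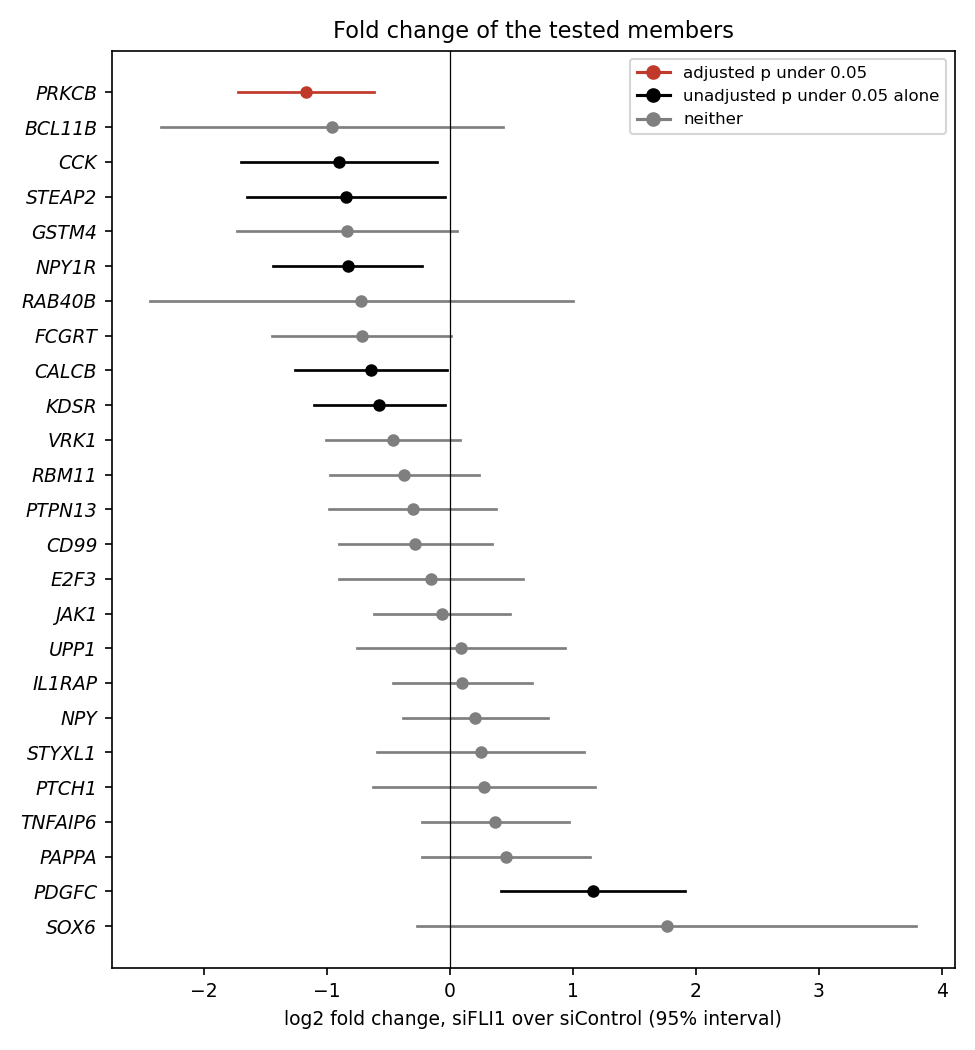
Log2 fold change of siFLI1 over siControl for the 25 tested members with its 95% interval, unadjusted over genes. Red marks the member that passed at an adjusted p of 0.05 (PRKCB, −1.17), black those with an unadjusted p below 0.05 alone, and grey the rest. PDGFC, at 1.17, is the black point on the positive side.

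Of the 4 transcription factors 3 were tested and none passed, and the largest log2 fold change among them rested on 1 library. SOX6, an SRY-related factor that shapes cartilage, muscle and red cell development, was at 9.50, 5.98 and 131 CPM for siFLI1 replicates 1, 2 and 3, from 17, 9 and 49 counts. The level was 14.5, 10.5 and 11.1 CPM for siControl replicates 1, 2 and 3, from 27, 18 and 13 counts. The shallowest library thus held the most SOX6 counts, as it held the most PTPRC counts (above). For SOX6 the other siFLI1 libraries lay below every siControl library. Its log2 fold change was 1.76 ± 0.93 (SE; adjusted p = 0.55) with all libraries and −0.63 (adjusted p = 0.788) without siFLI1 replicate 3. With no low-count filter edgeR called SOX6 higher (1.65, adjusted p = 0.0337), and limma-voom gave −0.14. BCL11B, a zinc finger repressor known from T cell and neuronal development, had 5, 9 and 3 counts in siFLI1 replicates 1, 2 and 3 and 25, 15 and 8 counts in siControl replicates 1, 2 and 3. Its level was 5.60 ± 2.64 CPM with siFLI1 and 9.69 ± 3.41 CPM with siControl, with overlap and −0.96 ± 0.65 as log2 fold change (SE; adjusted p = 0.668). E2F3, which drives genes of DNA replication, was at 30.5 ± 2.67 CPM with siFLI1 and 33.6 ± 5.41 CPM with siControl, a log2 fold change of −0.15 with a 95% interval from −0.90 to 0.60. GLI1, the terminal activator of Hedgehog signalling, had 1, 2 and 0 counts in siFLI1 replicates 1, 2 and 3 and 2, 0 and 3 in siControl replicates 1, 2 and 3. A change of GLI1 could not be detected at this depth.

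Secreted peptides and growth factors went in different directions, and none passed. CCK, the gut and brain peptide cholecystokinin, was at 34.7, 60.5 and 48.2 CPM for siFLI1 replicates 1, 2 and 3, against 81.9, 134 and 49.6 CPM for siControl replicates 1, 2 and 3. The groups met at siFLI1 replicate 2 and siControl replicate 3, and the log2 fold change was −0.90 ± 0.37 (SE; adjusted p = 0.396). CALCB, the beta form of calcitonin gene-related peptide, a vasodilator of sensory nerves, was at 163, 185 and 112 CPM for siFLI1 replicates 1, 2 and 3, against 186, 328 and 215 CPM for siControl replicates 1, 2 and 3. The groups did not overlap but nearly met at siFLI1 replicate 2 and siControl replicate 1, with a log2 fold change of −0.64 ± 0.29 (adjusted p = 0.435). NPY, neuropeptide Y, which Ewing cells are known to secrete, was at 123, 163 and 118 CPM for siFLI1 replicates 1, 2 and 3, against 147, 117 and 87.2 CPM for siControl replicates 1, 2 and 3. Its groups overlapped, and the log2 fold change of 0.21 had a 95% interval from −0.39 to 0.80.

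PDGFC, a ligand of platelet-derived growth factor receptors, was the member with the smallest p on the higher side. It was at 40.8, 53.1 and 66.9 CPM for siFLI1 replicates 1, 2 and 3, from 73, 80 and 25 counts, against 23.7, 19.9 and 26.5 CPM for siControl replicates 1, 2 and 3, from 44, 34 and 31 counts. Each siFLI1 library exceeded each siControl library. The means were 53.6 ± 13.1 CPM with siFLI1 and 23.4 ± 3.30 CPM with siControl, and edgeR's estimate of 1.17 ± 0.35 on the log2 scale (SE; interval at 95% from 0.42 to 1.91) missed the threshold (adjusted p = 0.154). Over the fits without 1 library it ran from 1.01 to 1.34, with adjusted p from 0.222 to 0.423. PDGFRB, a receptor that was in the list of related genes, lay on the same side at 51.3 ± 16.1 CPM with siFLI1 and 15.3 ± 9.25 CPM with siControl. Its log2 fold change of 1.68 ± 0.47 did not pass either (edgeR adjusted p = 0.117), though DESeq2 called it. The other receptor, PDGFRA, was near 0 except in siControl replicate 1 and is among the fibroblast markers, whose sum was higher in siFLI1 as given above.

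The pair of secreted enzyme and matrix genes had positive log2 fold changes that did not pass. PAPPA, a metalloproteinase that cuts insulin-like growth factor-binding proteins, averaged 91.8 ± 25.8 CPM with siFLI1 and 65.3 ± 19.5 CPM with siControl, with 0.46 ± 0.32 as log2 fold change (SE; adjusted p = 0.681). With the libraries that stood apart left out it was 0.25 (siFLI1 replicate 3), 0.19 (siControl replicate 1) and 0.013 (both). IGFBP4, its best known substrate, was at 18.5 ± 4.49 CPM with siFLI1 and 7.55 ± 2.22 CPM with siControl, with no overlap and a log2 fold change of 1.28 ± 0.51 (adjusted p = 0.369). TNFAIP6, a hyaluronan-binding protein induced by inflammation, was at 409.8, 345 and 592 CPM for siFLI1 replicates 1, 2 and 3, against 394, 361 and 279 CPM for siControl replicates 1, 2 and 3. The groups overlapped, and the log2 fold change was 0.37 ± 0.28 (adjusted p = 0.709), and leaving out replicate 3 of siFLI1 gave 0.13, and that of siControl 0.24. Of 6 listed partners of TNFAIP6 in the hyaluronan matrix, 2 were tested and both were called higher, where 1.34% of all genes were. This list was chosen with earlier results of these data known, and a link of its genes to TNFAIP6 was not tested. The pentraxin PTX3, which TNFAIP6 binds, averaged 1076 ± 84.6 CPM with siFLI1 and 370.3 ± 55.3 CPM with siControl (log2 fold change 1.54 ± 0.27, adjusted p = 0.00703). The hyaluronan receptor CD44 averaged 665 ± 159.6 CPM with siFLI1 and 148 ± 16.0 CPM with siControl (2.16 ± 0.28, adjusted p = 0.000492). CD44 was called in all 6 fits without 1 library, and PTX3 in 4 of them, losing its call when replicate 2 of either group was left out.

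Of the receptors and surface proteins none passed, and NPY1R had the smallest p. NPY1R encodes the Y1 receptor, through which neuropeptide Y signals. It was at 67.7, 100.3 and 118 CPM for siFLI1 replicates 1, 2 and 3, from 121, 151 and 44 counts, against 186, 176 and 136 CPM for siControl replicates 1, 2 and 3, from 346, 300 and 159 counts. All siFLI1 libraries lay below all siControl libraries, while its ligand NPY overlapped between the groups. The means were 95.3 ± 25.5 CPM with siFLI1 and 166 ± 26.6 CPM with siControl, at −0.83 ± 0.28 as log2 fold change (SE; 95% interval −1.43 to −0.23; adjusted p = 0.24). Over the fits without 1 library it ran from −0.99 to −0.62. Whether NPY1R and NPY differ in their response was not tested.

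FCGRT, the heavy chain of the neonatal Fc receptor that recycles IgG, averaged 64.5 ± 16.5 CPM with siFLI1 and 109 ± 49.4 CPM with siControl, with −0.72 ± 0.34 as log2 fold change (SE; adjusted p = 0.475). Its siControl mean was carried by replicate 1, at 165 CPM against 86.7 and 74.4 CPM in replicates 2 and 3. Without that library the log2 fold change was −0.31. B2M, the light chain of the same receptor and of MHC class I, was at 7976 ± 1057 CPM with siFLI1 and 6938 ± 855 CPM with siControl, and did not pass (adjusted p = 0.895). CD99, the surface glycoprotein used to diagnose Ewing sarcoma, averaged 83.0 ± 12.2 CPM with siFLI1 and 101 ± 29.4 CPM with siControl, a log2 fold change of −0.28 with a 95% interval from −0.91 to 0.35. Its only row is placed on chromosome Y, in the region that the X and Y chromosomes share. Reads could be split between copies, and those placed on the X copy may be missing from this row. IL1RAP, the accessory chain of interleukin-1 receptors, was at 138, 189 and 209 CPM for siFLI1 replicates 1, 2 and 3, against 166, 193 and 135 CPM for siControl replicates 1, 2 and 3. Its groups overlapped, and its log2 fold change of 0.10 (95% interval −0.46 to 0.67) turned to −0.03 when libraries were scaled by total counts. PTCH1, the Hedgehog receptor and itself a target of GLI factors, was at 69.9, 32.6 and 21.4 CPM for siFLI1 replicates 1, 2 and 3, against 37.7, 24.6 and 46.2 CPM for siControl replicates 1, 2 and 3. The spread within siFLI1 covered the whole range of siControl, and the log2 fold change of 0.28 ± 0.42 turned to −0.35 without siFLI1 replicate 1.

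Among enzymes, 3 of 4 tested genes had a negative log2 fold change and none passed. KDSR, which reduces 3-ketosphinganine in the making of sphingolipids, was at 178, 175 and 193 CPM for siFLI1 replicates 1, 2 and 3, against 312, 283 and 215 CPM for siControl replicates 1, 2 and 3. The groups did not overlap, and the log2 fold change was −0.57 ± 0.25 (SE; adjusted p = 0.423). STEAP2, a metalloreductase of the cell and Golgi membranes, was at 30.8, 50.5 and 48.2 CPM for siFLI1 replicates 1, 2 and 3, against 110, 76.1 and 41.0 CPM for siControl replicates 1, 2 and 3. Its siControl replicate 3 lay within the siFLI1 values, and the log2 fold change was −0.84 ± 0.38 (adjusted p = 0.432). STEAP1, its neighbour on chromosome 7, averaged 379 ± 83.5 CPM with siFLI1 and 688 ± 107 CPM with siControl with no overlap (log2 fold change −0.87 ± 0.27, adjusted p = 0.184). GSTM4, a mu class glutathione S-transferase linked to drug resistance in this tumour, was at 41.9, 38.5 and 8.03 CPM for siFLI1 replicates 1, 2 and 3, against 72.7, 43.9 and 58.1 CPM for siControl replicates 1, 2 and 3. The groups did not overlap, and the lowest value came from 3 counts in the shallowest library. The log2 fold change was −0.84 ± 0.42 (adjusted p = 0.502), and −0.53 in the fit without siFLI1 replicate 3. Mu class genes are close copies of each other, so reads of GSTM4 are uncertain. UPP1, uridine phosphorylase, was at 27.9 ± 10.3 CPM with siFLI1 and 27.7 ± 5.93 CPM with siControl.

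TERT, the reverse transcriptase subunit of telomerase, had 0 counts in each siFLI1 library, which allows a level of up to 0.818 CPM over the group, and 2, 1 and 1 counts in siControl replicates 1, 2 and 3. The siControl mean of 0.839 CPM was close to that limit, so a fall was not detectable at this depth. MFNG, a fringe glycosyltransferase that modifies Notch receptors, had 0 counts in all 6 libraries, which allows up to 0.818 CPM with siFLI1 and 0.634 CPM with siControl. LOXHD1, a hair cell protein with repeated PLAT domains, had 6, 2 and 0 counts in siFLI1 replicates 1, 2 and 3 and 4, 11 and 0 counts in siControl replicates 1, 2 and 3. With no low-count filter GLI1, TERT, KIT and LOXHD1 had adjusted p from 0.713 to 0.97. RBM11, a tissue-specific splicing regulator, was at 84.4, 89.0 and 153 CPM for siFLI1 replicates 1, 2 and 3, against 136, 138 and 135 CPM for siControl replicates 1, 2 and 3. Its siControl libraries were nearly equal, and siFLI1 replicate 3 lay above them while the other siFLI1 libraries lay below. The log2 fold change was −0.37 ± 0.28 (SE) with all libraries and −0.65 (adjusted p = 0.387) without siFLI1 replicate 3. RAB40B, a small GTPase with a SOCS box that works in ubiquitin ligases, had 9, 2 and 5 counts in siFLI1 replicates 1, 2 and 3 and 10, 25 and 6 counts in siControl replicates 1, 2 and 3, with a log2 fold change of −0.72 ± 0.80.

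**Figure D3:**
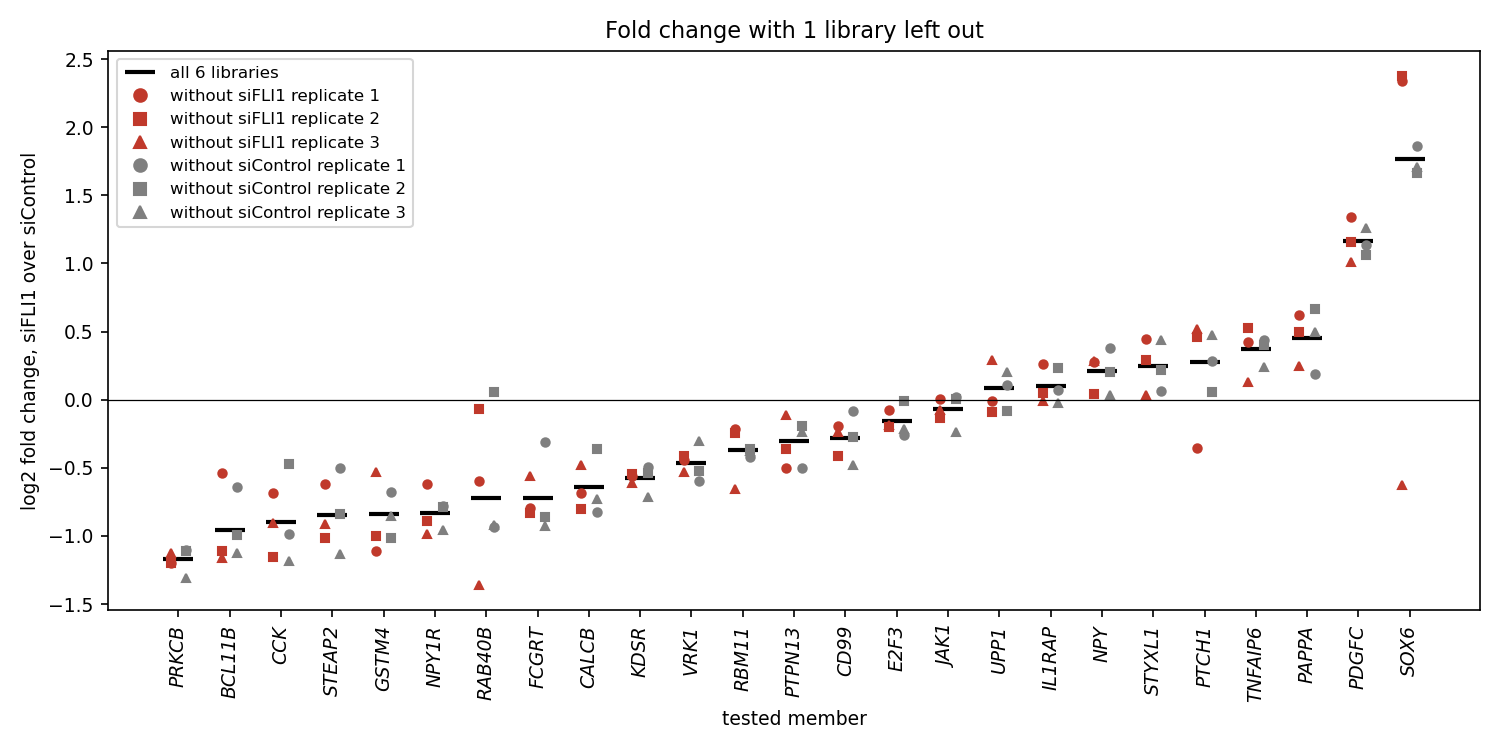
Log2 fold change of siFLI1 over siControl for the 25 tested members with all 6 libraries (black bars) and with 1 library left out (red for siFLI1, grey for siControl). PRKCB stays between −1.31 and −1.10 and PDGFC between 1.01 and 1.34, while SOX6 drops to −0.63 without siFLI1 replicate 3.

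Genes that work with the members were taken from 19 lists of 123 further genes, of which 63 were tested. Of these 63, 2 rose (PTX3 and CD44, above) and 0 fell, where 1.34% of all genes rose and 0.117% fell. DESeq2 called 3 higher and 0 lower, and limma-voom 2 higher and 0 lower. Before adjustment edgeR had 5 higher and 5 lower at p below 0.05, where 6.62% of all genes were higher and 4.13% lower. A negative log2 fold change was found for 31 of the 63, near the 49.6% of all genes. Beside PRKCB, 2 of 8 other protein kinase C genes were tested, and PRKCI, an atypical isoform, was at 18.0 ± 3.13 CPM with siFLI1 and 11.5 ± 2.70 CPM with siControl (log2 fold change 0.60 ± 0.48, adjusted p = 0.736). In the Hedgehog list 5 of 14 genes were tested and 0 passed. Among them GAS1, a co-receptor for Hedgehog ligands, averaged 18.2 ± 5.32 CPM with siFLI1 and 38.9 ± 10.1 CPM with siControl with no overlap (−1.04 ± 0.39, adjusted p = 0.314). All 5 tested telomerase components had negative log2 fold changes and 0 passed, and DKC1, the pseudouridine synthase dyskerin, was at −0.78 ± 0.33 (adjusted p = 0.412). Of 11 tested E2F factors and pocket proteins, 8 had negative values and 0 passed. TFDP2, a dimer partner of E2F factors, was at −1.09 ± 0.45 (adjusted p = 0.393). The tested genes of the pappalysin list (3), the KIT and PDGF list (3) and the protein kinase C list (2) had 0 negative values. The same held for the hyaluronan list (2) and for the VRK, BCL11 and SOXD, mu class, RAB40 and FcRn lists (1 each). The uridine salvage list (4) and the STEAP list (2) had negative values alone. Each of these lists holds few tested genes. In the list around JAK1, 6 further genes were tested and 0 passed. In the remaining lists the gene with the smallest adjusted p was at 0.425 for NOTCH2, 0.467 for SPTLC2, 0.626 for VRK2, 0.639 for SOX13, 0.741 for PAM, 0.841 for GSTM3, 0.858 for TYMP and 0.969 for RAB40C. None of the 4 further chains of interleukin-1 receptors passed the low-count filter.

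**Figure D4:**
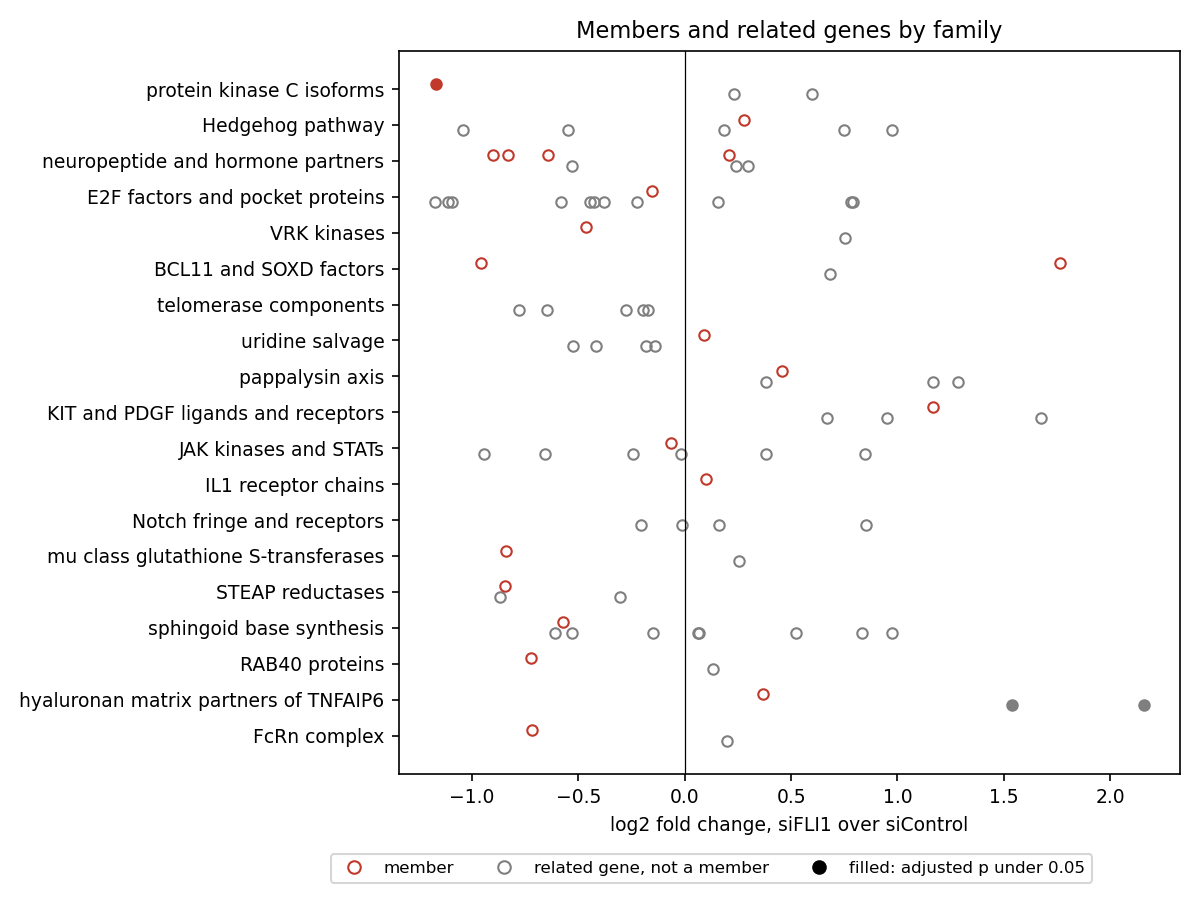
Log2 fold change of siFLI1 over siControl for tested members (red) and the related genes of each list (grey), with lists down the page. Filled points passed at an adjusted p of 0.05: PRKCB at −1.17, PTX3 at 1.54 and CD44 at 2.16.

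Promoters were read for short sequence features. Genes listed as targets through GGAA repeats were kept in a separate list, so the choice of the 30 was not independent of such repeats. Of the 30 genes, 25 had an entry in the RefSeq promoter table and gave 44 windows of 300 bases, since some genes have several starts. GLI1, VRK1, PDGFC, CALCB and MFNG had none. Both strands were searched for a pair of GGAA repeats (GGAAGGAA), a high-affinity ETS site (ACCGGAAGT) and a GLI site (GACCACCCA). The first shares its GGAA core with the ETS site, and no window held both. The pair of repeats lay in 3 of 44 windows, those of E2F3, SOX6 and LOXHD1, and in 3.67% of all 35116 windows. The ETS site lay in 1 window, that of STYXL1, and in 1.0% of all windows. The GLI site lay in 1 window, that of PTCH1, and in 0.236% of all windows. The stretches around these matches are shown 5′ to 3′ on the gene's strand, with the match in capitals; it reads as its reverse complement except in LOXHD1.
E2F3 (chr6:20403389-20403448, plus strand): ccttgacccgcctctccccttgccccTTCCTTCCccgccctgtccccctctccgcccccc
SOX6 (chr11:16356541-16356600, minus strand): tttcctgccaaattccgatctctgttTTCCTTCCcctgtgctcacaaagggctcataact
LOXHD1 (chr18:46657350-46657409, minus strand): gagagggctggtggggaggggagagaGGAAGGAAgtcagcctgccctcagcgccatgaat
STYXL1 (chr7:76048010-76048070, minus strand): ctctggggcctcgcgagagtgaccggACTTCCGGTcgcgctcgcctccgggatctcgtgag
PTCH1 (chr9:95509404-95509464, minus strand): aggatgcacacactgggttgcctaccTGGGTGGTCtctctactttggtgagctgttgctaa
Of these 5 genes LOXHD1 was not tested and none of the others passed. The matched windows of E2F3, SOX6, LOXHD1 and PTCH1 belong to other starts than that of the gene's row in the counts. For LOXHD1, on the minus strand, that row ends at chr18:46559307. PRKCB and the other 5 members with an unadjusted p below 0.05 on the lower side held no match in the windows searched, and CALCB had no window. The windows cover starts alone, and distal GGAA repeats lie outside them.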

How the data were processed

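RNA of A673 cells was measured in 3 siFLI1 and 3 siControl libraries made, per the labels' protocols, with a bulk form of MARS-seq that reads 3' ends and carries a molecular barcode. The authors deposited raw counts per gene over exons in 1 table. Per the submitters' processing notes, bcl2fastq, HISAT 0.1.5, HOMER and hg38 were used, in roles not stated there. Barcode collapse and strand use are not given in the sources used here. PCR copies and reads of antisense genes may therefore be among the counts. Column names matched sample titles. Separate cultures are not stated for the triplicates, so p-values reflect a spread among libraries that may be technical.

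Genes were kept by edgeR's filterByExpr (minimum count 10, minimum total 15), libraries were scaled by TMM, and the groups were compared with edgeR 4.0.16 under R 4.3.3 (robust glmQLFit, then a two-sided glmQLFTest of group alone). Adjustment was by Benjamini-Hochberg over the 9420 genes and the threshold 0.05. Standard errors and 95% intervals were derived from the F statistic. For 1 gene, an exact permutation of 3 against 3 libraries cannot give p below 0.1. Limits for 0 counts used 3 counts over a group and cover counting error only. Members and lists were chosen with earlier results of these data known. All 30 members are named. Per library values are given for those with an unadjusted p below 0.05 or a mean over 100 CPM, and for others where a library decides the value. Exceptions are CD99 and the siFLI1 libraries of FCGRT, which are given by mean and SD. Of the related genes, those past the threshold and otherwise at most 1 per list are named. Outside this rule are PDGFRA, which is also a fibroblast marker, and NPY5R, chosen after its values were seen. Some selected genes are not reported here. Alternatives were DESeq2 size factors, total counts, no filter, 5 CPM in 3 libraries, DESeq2 1.42.0, limma-voom (limma 3.58.1), the replicate number as a block and leaving out libraries. The fits were tested on simulated counts with 200 changed genes.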

Additional observations from a re-analysis of the deposited data

How the results depend on the processing

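The 137 calls over all genes became 368 with no low-count filter and 217 with DESeq2, and ran from 65 to 126 in the fits without 1 library. Of these, the genes called lower numbered 11 in the reported fit, 62 with no filter, 34 with DESeq2, 32 without both libraries that stood apart, 2 with the replicate block and 1 to 7 without 1 library. The 1 member called lower, PRKCB, was called under each scaling, filter and tool run, and 0 members were called lower with the replicate block, with both libraries that stood apart left out, or in any of the 6 fits without 1 library (0 to 0). With no filter 1 member, SOX6, was called higher. Same-numbered libraries did not deviate together (correlations −0.03, −0.01 and −0.05). The deviations were taken within groups of 3 libraries, so they cannot tell whether same-numbered libraries shared a culture or batch. The replicate block gave PRKCB a log2 fold change of −1.17 (adjusted p = 0.094), and every siFLI1 library correlated best with a siControl library of another number. The median log2 fold change of the members was −0.44 under total counts, −0.43 with no filter and −0.25 in limma-voom, and ran from −0.48 to −0.18 without 1 library. Members below 0 numbered 15 to 19 in all alternatives. Related genes called were 4 without both libraries (CD44, PDGFRB, PTX3 and STEAP1), and 1 to 2 without 1 library.

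The direction turned for 7 members, among them SOX6 and RAB40B with log2 fold changes of 1.76 and −0.72. IL1RAP was at −0.026 and UPP1 at −0.045 under total counts. SOX6 was at −0.14 in limma-voom. Without both libraries SOX6 was at −0.48, IL1RAP at −0.022, JAK1 at 0.029 and STYXL1 at −0.12. Over the fits without 1 library IL1RAP ran from −0.023 to 0.26, JAK1 from −0.24 to 0.017, PTCH1 from −0.35 to 0.52, RAB40B from −1.36 to 0.053, SOX6 from −0.63 to 2.37 and UPP1 from −0.087 to 0.29. The cause was not tested. The other 18 tested members kept their direction in every alternative that tested them. The 30 members had 3824, 3464 and 975 counts in siFLI1 replicates 1, 2 and 3 and 2737 to 5449 in the siControl libraries.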

Other observations

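NPY5R, the gene of the Y5 receptor for neuropeptide Y, lies beside NPY1R on chromosome 4 (hg38 163343847 to 163351934, plus strand, with NPY1R at 163323965 to 163332795 on the minus strand). It did not pass the low-count filter, and it is named after its values were seen. NPY5R had 4, 8 and 1 counts in siFLI1 replicates 1, 2 and 3, or 3.41 ± 1.66 CPM, and 9, 26 and 9 counts in siControl replicates 1, 2 and 3, or 9.26 ± 5.36 CPM (SD, n = 3 each). The groups overlapped slightly, and with no low-count filter edgeR gave −1.41 ± 0.87 as log2 fold change (SE; adjusted p = 0.623).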
